A study of Mus musculus with 10 samples.

Results

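Embryoid bodies (EBs) collected 24 h after ES cells were placed in suspension were compared between cells with a knockdown of Smyd5 (shSmyd5) and control cells (shLuc). These were 2 of the 10 RNA-Seq libraries of the study, 1 of each kind, and every gene with an RPKM (reads per transcript, scaled to its length and to the mapped reads of the library) of at least 3 in either library was kept, which left 8354 of 22878 genes. Of these, 7026 reached that level in both libraries, 866 only in shSmyd5 and 462 only in shLuc. The filter fixed the direction of the 866 and the 462, which hold every kept gene below 3 in 1 library. At the limit stood Zbtb39 just outside, with 2.80 in shLuc and 2.999 in shSmyd5, and Gm6623 just inside, with 2.41 and 3.00. Both groups came from R1 mouse ES cells carrying a lentiviral short hairpin RNA (shRNA) and selected with puromycin, which targeted Smyd5 in the shSmyd5 group and luciferase, a gene that mouse cells lack, in the shLuc group. The labels state for RNA-Seq that ES cells of both groups were passaged on gelatin with CHIR9901, an inhibitor of GSK3 and so an activator of the Wnt pathway, to clear feeder cells. The methods of the study name this step for ChIP only, and neither source says whether the cells that formed EBs went through it. The EBs formed in low attachment dishes without LIF. The number of cultures behind each library and which of the tested shRNAs it carried are not given in the sources used here. With 1 library per group no difference has a replicate check, and no p-value is given. The remaining libraries of ES cells and of later EBs (day 6, day 10, day 14), again 1 of each kind per stage, are used only to place the 24 h values.

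SMYD5 belongs to the SET and MYND domain proteins and is a methyltransferase of histone H4 lysine 20, whose trimethylated form marks heterochromatin. In the first day after LIF withdrawal ES cells begin to leave the naive pluripotent state and take on features of the epiblast after implantation, while cells of the primitive endoderm can form at the EB surface. Cells inside an aggregate can also receive less oxygen than cells in a monolayer. When oxygen is limiting, the hydroxylases EGLN1 and EGLN3 no longer mark the HIF proteins for removal by VHL, and HIF raises the transcription of genes for glucose uptake, glycolysis, lactate export, mitochondrial removal and blood vessel growth, as well as that of EGLN3 itself. LEF1 is the DNA-binding partner of β-catenin in the Wnt pathway and is also a gene that Wnt signaling turns on. In bulk RNA, fewer cells of a kind and less RNA per cell cannot be told apart.

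The shLuc library held 11119729 reads in genes and the shSmyd5 library 26181482, within the 3895537 to 43377815 of all 10 libraries. Although it was the deeper of the pair, the shSmyd5 library had 0 reads for 8533 genes, against 6670 in shLuc. The shLuc library of 24 h stood apart from the other libraries of the study in several gene groups that differed between the pair. Among the 8354 genes it had the lowest RPKM of all 10 libraries for 18.8% and the highest for 9.48%. The share with the lowest value was 53.6% among hypoxia response genes and 75.0% among glycolytic enzymes, and the share with the highest was 100% among genes of the 2-cell-like state. The filter entered these shares, which were not computed without the genes it selected. In shSmyd5 alone, 6 of 28 hypoxia response genes and 4 of 16 enzymes reached the limit, and in shLuc alone 1 of 11 2-cell-like genes. Values in the other libraries are therefore given beside the differences, and the part of this library in them was not tested. The label of early EBs was checked against markers. Pou5f1, Sox2 and Zfp42 lay between 141 and 324 RPKM in both libraries, and Nanog, given below, was under that range in both. The mesoderm genes T and Mixl1 lay at 0.55 or below, the trophoblast genes Cdx2, Elf5 and Krt7 at 0.09 or below, and the fibroblast collagens Col1a1, Col1a2 and Col3a1 at 0.50 or below. The 16 markers of feeder fibroblasts summed to 13.8 RPKM in shLuc and 10.9 in shSmyd5 EBs, with Postn at 0 in both.

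Folds are shSmyd5 over shLuc on the log2 scale after 0.1 was added to each RPKM. The interval after a fold is the exact binomial 95% interval from the reads of the 2 libraries without the added 0.1, and covers counting error only. Smyd5 (chromosome 6, 85381983 to 85396429, mm9, as for all gene positions) measured 10.7 RPKM in the control and 0.891 after knockdown, a log2 fold of -3.44 (-3.92 to -3.26). It was lower in shSmyd5 at the other stages too, at 4.51 against 29.7 in ES cells and, in order of age, at 0.492 against 15.4, 9.14 against 25.0 and 6.88 against 13.1 in later EBs. Over all 8354 genes, 13.0% were at least 2-fold higher and 4.26% at least 2-fold lower in shSmyd5 EBs (1087 and 356 genes), and 27.8% and 12.2% at least 1.5-fold higher and lower. Over all these genes the median log2 fold was 0.17, or 0.14 over the 7026 genes that reached the limit in both, and with this median removed 62.7% of the 2-fold genes were higher, against 75.3% as deposited, 62.0% with TMM factors, 60.2% with DESeq2 size factors and 55.1% with the trend on GC content described next removed. The scatter of both libraries shows where the groups described next lie.

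**Figure D1:**
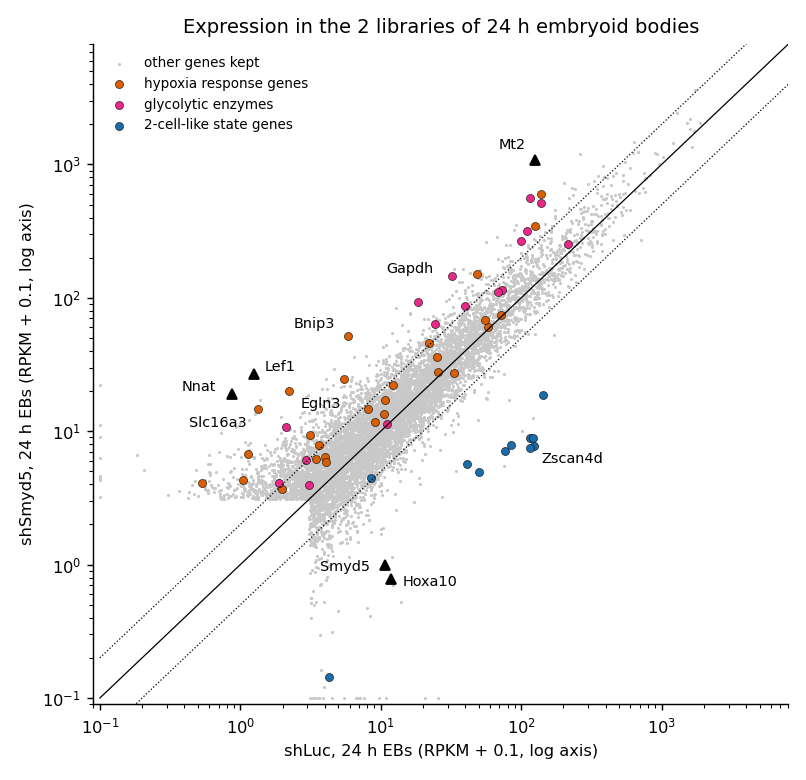
Each point is 1 gene, with its RPKM plus 0.1 in shLuc EBs on the horizontal axis and in shSmyd5 EBs on the vertical axis, both logarithmic; the solid line marks equal values, the dotted lines 2-fold differences, and triangles mark 5 single genes. Hypoxia response genes and glycolytic enzymes lie on or above the line of equal values apart from Kdm3a, and the 11 kept genes of the 2-cell-like state lie below it.

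The fold followed the base composition of the transcript. Across 8001 genes with a known coding transcript, which are not independent, fold and GC content had a rank correlation of 0.576. In 10 groups of genes ordered by GC content the share at least 2-fold higher went from 0.624% (median GC 39.8%) to 42.4% (median GC 59.4%), and the share at least 2-fold lower from 10.5% to 1.63%. A second fold was therefore computed with an additive trend on GC content and transcript length removed, called the corrected fold here. On it 13.9% of genes were at least 1.5-fold higher and 12.7% lower. Of 1323 genes with a 2-fold difference and a known GC content, 591 also had a corrected difference of 2-fold in the same direction, namely 383 of 1024 higher and 208 of 299 lower genes.

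**Figure D2:**
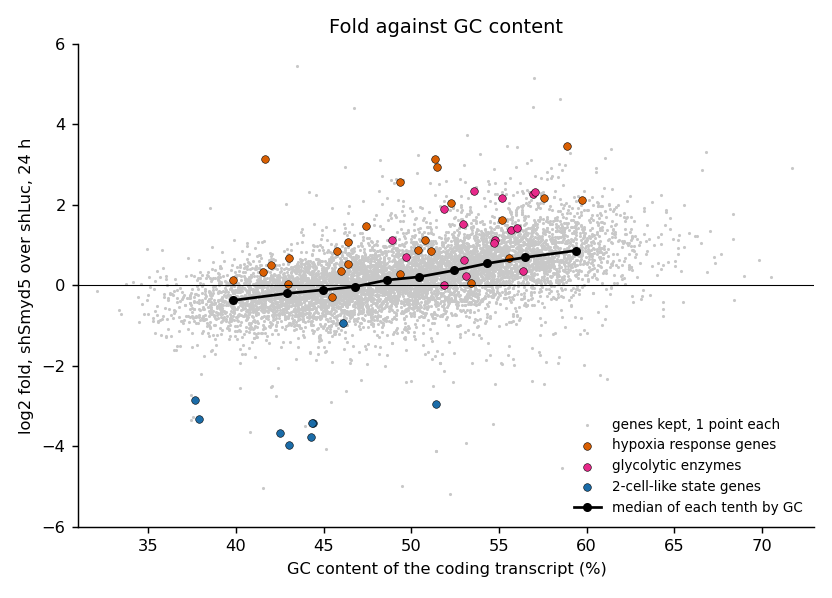
Each grey point is 1 gene, with the GC content of its coding transcript on the horizontal axis and its log2 fold in 24 h EBs on the vertical axis; black points join the medians of 10 equal groups by GC content. The medians climb from -0.37 to 0.86, most hypoxia response genes lie above the line and the 2-cell-like genes lie far below it.

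Genes of the hypoxia response were higher in shSmyd5 EBs. Of 39 listed genes 28 were kept, and 19 of these were at least 1.5-fold higher and 0 lower, with a median log2 fold of 0.89 against 0.17 for all genes, of which 27.8% were that much higher. On the corrected fold 18 of 26 were at least 1.5-fold higher and 0 lower, against 13.9% and 12.7% of all genes, with the same median of 0.89. The direction of 6 members was fixed by the filter, since they reached an RPKM of 3 in shSmyd5 alone, and of the 22 that reached it in both libraries 13 were higher and 0 lower. The largest differences belonged to Slc16a3 and Egln3, which are among those 6 members, and to Bnip3. Their promoters are shown because the members of this list moved together, and were searched for the core of the site that HIF binds, ACGTG or GCGTG on either strand. The sequences are those of RefSeq on GRCm38.p6, 5′ to 3′ on the strand of the gene, from 250 bases before to 50 bases after the annotated start, with each match to a core in capitals. Egln3 lies at chr12:54203825-54204124 on the minus strand, Bnip3 at chr7:138909457-138909756 on the minus strand and Slc16a3 at chr11:120948817-120949116 on the plus strand.
Egln3: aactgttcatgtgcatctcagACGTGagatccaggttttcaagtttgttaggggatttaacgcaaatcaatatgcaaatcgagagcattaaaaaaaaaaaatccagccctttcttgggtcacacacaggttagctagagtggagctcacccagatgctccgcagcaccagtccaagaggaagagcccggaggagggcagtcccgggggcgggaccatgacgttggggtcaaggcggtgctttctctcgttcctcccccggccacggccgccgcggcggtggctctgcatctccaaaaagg
Bnip3: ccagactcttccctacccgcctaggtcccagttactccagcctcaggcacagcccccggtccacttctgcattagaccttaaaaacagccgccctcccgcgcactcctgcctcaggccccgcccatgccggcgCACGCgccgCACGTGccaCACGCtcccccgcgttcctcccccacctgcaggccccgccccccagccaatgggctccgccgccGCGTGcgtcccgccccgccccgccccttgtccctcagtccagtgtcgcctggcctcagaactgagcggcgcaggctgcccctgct
Slc16a3: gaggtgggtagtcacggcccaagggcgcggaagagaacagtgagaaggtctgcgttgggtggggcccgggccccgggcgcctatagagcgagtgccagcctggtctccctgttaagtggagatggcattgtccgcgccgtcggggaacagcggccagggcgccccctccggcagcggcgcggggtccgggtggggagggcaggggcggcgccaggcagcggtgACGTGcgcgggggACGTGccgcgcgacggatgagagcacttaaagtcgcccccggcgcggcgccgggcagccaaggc

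There was 1 match in the Egln3 window, 5 in that of Bnip3, of which an overlapping pair forms CACGTG, and 2 in that of Slc16a3. Windows with such a core are common. It stood in 43.8% of all 32851 promoter windows and in at least 1 window of 71.6% of the genes kept at 24 h for which a window was had. Of the kept hypoxia response genes 21 had a window, and it stood in at least 1 window of all 21 of them. Counted by window, it stood in 81.25% of their 32 windows, against 65.9% of the 7489 windows of genes kept at 24 h. The hypoxia response genes were listed as known HIF targets, and their windows had a median GC content of 65.0% against 61.3%. No occupancy was measured, and a match in a window is not a binding site.

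Slc16a3, the lactate exporter MCT4 (chromosome 11, 120809794 to 120822182), measured 1.24 RPKM in the control and 14.7 after knockdown, a log2 fold of 3.47 (3.19 to 3.97). Its RPKM was 13.7 to 82.8 in the 8 libraries of the other stages, so the shLuc value at 24 h was the lowest of all. Part of its transcript, 15.6% of the exonic bases, lies under exons of Csnk1d, and reads carried no strand. Egln3, the HIF prolyl hydroxylase that HIF itself induces (chromosome 12, 55279968 to 55304847), measured 2.14 and 19.8, which is a log2 fold of 3.15 (2.93 to 3.50). The shLuc value was again the lowest of the 10 libraries, below the 6.16 of shLuc ES cells, and from day 6 on all libraries lay between 22.2 and 54.3. Bnip3, a mitochondrial protein that marks mitochondria for autophagy (chromosome 7, 146082519 to 146101202), measured 5.75 and 52.0, giving a log2 fold of 3.15 (2.97 to 3.39). Its GC content is only 41.6%, and its corrected fold was larger, at 3.31.

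The other members covered most branches of the response. Among secreted factors, the hormone-like glycoprotein Stc2 had an RPKM of 0.436 and 4.0 (log2 fold 2.94), the cytokine Mif 138 and 603 (2.13), and the angiogenic factor Vegfa 3.54 and 7.80 (1.12). Glucose transport was represented by Slc2a1, at 48.7 and 151 (1.63), and Slc2a3, at 55.6 and 68.0 (0.29). Of the regulators of metabolism and growth, the pyruvate dehydrogenase kinase Pdk1 had 21.8 and 46.1 (1.08), the mTORC1 inhibitor Ddit4 5.35 and 24.5 (2.17), and the transcriptional repressor Bhlhe40 1.04 and 6.68 (2.58). The collagen hydroxylases P4ha1 and Plod2 had smaller folds of 0.85 and 0.68. Folds near 0 were seen for the transferrin receptor Tfrc (0.12), the heme oxygenase Hmox1 (0.07) and Rbpj (0.05), and the histone demethylase Kdm3a had 33.3 and 27.0 (-0.30). In all, 27 of 28 members had a fold above 0, from 0.05 to 3.47, as did 5052 of all 8354 genes. The filter fixed the direction of 6 of these members. Tfrc, Hmox1 and Rbpj fall below the median fold of all genes, and the corrected fold of Hmox1 was -0.38.

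The genes for the HIF subunits differed among themselves. Hif1a, the oxygen-regulated subunit, measured 58.5 RPKM in the control and 40.5 after knockdown, a log2 fold of -0.53 (-0.58 to -0.48) and a corrected fold of -0.23. Its paralog Epas1, or HIF-2α, was the reverse, with 34.8 and 71.9, a log2 fold of 1.04 (0.99 to 1.1). Egln1 had 3.90 and 6.36 (0.69, corrected 0.18), while Egln2, Vhl and the partner subunit Arnt differed by 0.03 (corrected -0.80), -0.04 and 0.20. Of the 8 kept regulators, 3 were at least 1.5-fold higher, Egln3 among them, and 0 lower, against 27.8% and 12.2% of all genes. Their median was 0.12. The filter fixed the direction of 2 that passed through shSmyd5 alone. Of the 6 that reached the limit in both libraries 2 were higher and 0 lower.

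Enzymes of glycolysis were higher as well, at almost every step from glucose to lactate. Of 20 listed enzymes 16 were kept, of which 13 were at least 1.5-fold higher and 0 lower, against 27.8% and 12.2% of all genes, with a median log2 fold of 1.25. Among the 12 that reached the limit in both libraries there were 10 and 0. These transcripts are rich in GC (median 54.2%), and on the corrected fold the median was 0.84, with 10 higher and 0 lower, against 13.9% and 12.7% of all genes. Tpi1, which interconverts the triose phosphates, measured 18.2 RPKM in the control and 93.1 after knockdown (2.35, 2.23 to 2.48). The liver-type phosphofructokinase Pfkl had 2.03 and 10.6 (2.33), the aldolase Aldoa 116 and 562 (2.28), and the lactate dehydrogenase Ldha 138 and 512.7 (1.89). Lower folds belonged to Pgk1 (0.71), Pgam1 (0.24) and the hexokinases Hk1 (0.35) and Hk2 (0.02), the first enzymes of the path. Gapdh had 31.9 and 145 (2.18, 2.08 to 2.29), but 85.6% of the 50-base windows of its transcript also stand in transcripts of other loci, so its reads cannot be fully assigned.

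**Figure D3:**
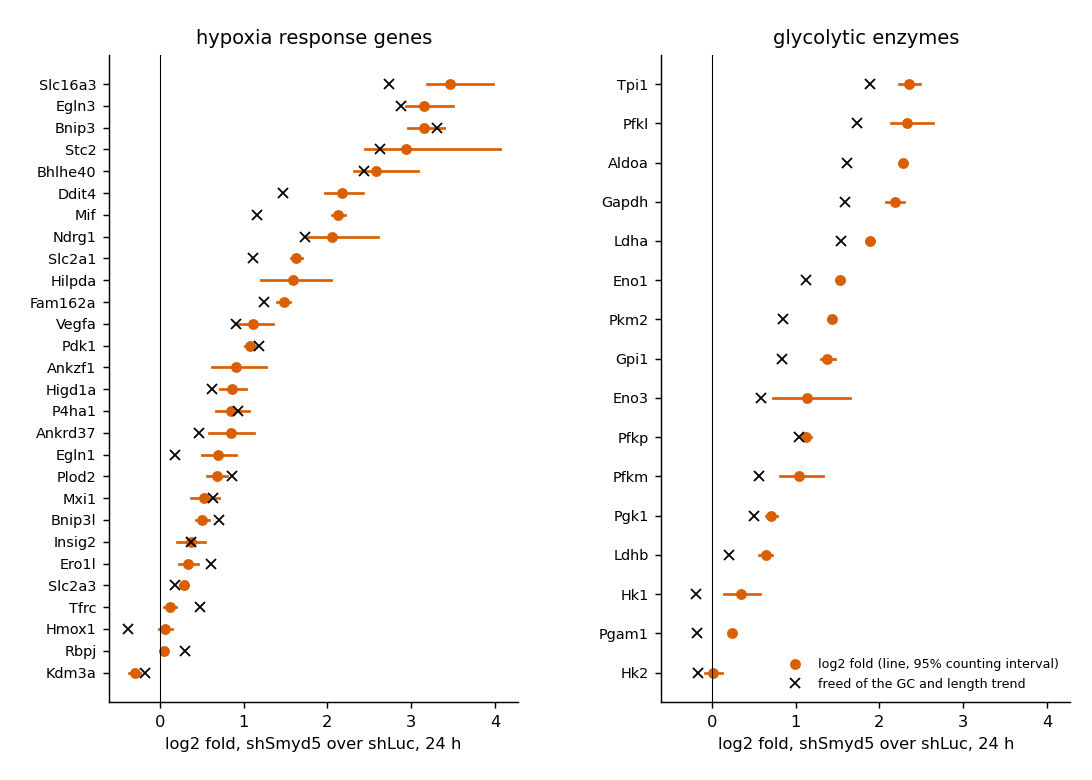
Log2 fold of shSmyd5 over shLuc in 24 h EBs for the kept hypoxia response genes and glycolytic enzymes, with the 95% counting interval as a line and the corrected fold as a cross. The folds of Slc16a3, Egln3 and Bnip3 exceed 3, 13 of 16 glycolytic enzymes exceed a 1.5-fold difference, and Kdm3a lies below 0.

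In these lists the shLuc library of 24 h was more often the low one of the study than the shSmyd5 library was the high one. The counts cover all kept members, of which 6 of 28 and 4 of 16 passed the filter through shSmyd5 alone. Those members were selected to be low in shLuc. The shLuc EBs of 24 h lay below all 4 other shLuc libraries in 17 of 28 hypoxia response genes and 13 of 16 glycolytic enzymes, against 33.9% of all genes. The shSmyd5 EBs lay above all 4 in 4 and 1 of them, against 21.4% of all genes. They lay below all 4 in 6 and 8, against 24.8%. Aldoa is an example, with 718 in shLuc ES cells, 116 and 562 in 24 h EBs, and 965 in shLuc EBs of day 6. The summed RPKM of the 20 glycolytic enzymes was 3902 in shLuc and 3835 in shSmyd5 ES cells, 957 and 2568 at 24 h, and 4070 and 3562 at day 6. At the other stages the median log2 fold of the glycolytic list was 0.05 in ES cells and -0.41, -0.18 and 0.14 in EBs of day 6, day 10 and day 14, and on the corrected fold 0.37, -0.09, -0.04 and -0.05. That of the hypoxia list was 0.47, 0.23, 0.23 and 0.28 in the same order, and 0.43, 0.48, 0.25 and 0.14 when corrected. The low position of shLuc EBs at 24 h was not limited to these lists. They lay below all 4 other shLuc libraries in 19 of 27 cholesterol and fatty acid, 7 of 10 endoderm and 5 of 8 HIF regulator genes. Of the kept members of these, 3, 3 and 2 passed through shSmyd5 alone. In the naive pluripotency network it was 1 of 34, and among Nodal pathway genes 0 of 11.

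Lef1 was far higher in shSmyd5 EBs. It lies on chromosome 3, 130813389 to 130927274, and measured 1.14 RPKM in the control and 26.5 after knockdown (54 and 2730 reads), a log2 fold of 4.42 (4.15 to 4.95), with a corrected fold of 4.39. Lef1 passed the filter through shSmyd5 alone, so that its direction was fixed by the filter. Its shSmyd5 value was the highest and its shLuc value the lowest of the 10 libraries. In ES cells Lef1 had 2.55 and 5.14, and from day 6 on it was lower in shSmyd5 than in shLuc EBs, at 6.09 against 16.9 first and then at 5.47 against 9.38 and 2.20 against 6.98. The other DNA-binding members of its family differed little, with log2 folds of 0.30 for Tcf7, 0.31 for Tcf7l1 and -0.36 for Tcf7l2, and β-catenin (Ctnnb1) had 233 and 221 RPKM (-0.08).

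Among the other genes of the Wnt pathway there was no common direction. No Wnt ligand reached an RPKM of 3 in either library. Of 11 kept receptors and modulators 4 were at least 1.5-fold higher and 3 lower, against 27.8% and 12.2% of all genes, with a median of -0.13. The filter fixed the direction of 3 that passed through shSmyd5 alone and of 1 that passed through shLuc alone. Of the 7 that reached the limit in both libraries 1 was higher and 2 lower. The receptor Fzd10, which passed through shSmyd5 alone, had 2.09 and 5.37 (1.32), and the secreted inhibitor Sfrp1 16.2 and 4.92 (-1.70). Of the 6 kept target genes 3 were higher and 0 lower (median 0.64), against 27.8% and 12.2% of all genes. On the corrected fold 2 were higher and 2 lower (median 0.27), against 13.9% and 12.7% of all genes. Of the 5 that reached the limit in both libraries 2 were higher and 0 lower on the uncorrected fold. The 3 higher target genes before correction were Lef1, the feedback inhibitor Axin2 at 3.34 and 8.54 (1.33) and Myc at 42.0 and 83.0 (0.98). The cyclin Ccnd1 had 25.4 and 17.8 (-0.51).

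The kept genes of the 2-cell-like state were far lower in shSmyd5 EBs. This transient state, which a few ES cells enter at a time, is marked by the Zscan4 family, telomere-associated zinc finger proteins otherwise active in the 2-cell embryo. Of 25 listed genes 11 were kept, and the rest, such as Zfp352, Dux, Tcstv1 and Tcstv3, did not reach the limit in either library. All 11 kept members were at least 1.5-fold lower, against 12.2% of all genes, with a median log2 fold of -3.43 and a corrected median of -3.37. Zscan4c and the other 5 listed Zscan4 genes are among the 11 and share sequence, so they are not separate measurements. Of the 11, 10 reached the limit in both libraries. Zscan4c (chromosome 7, 11591071 to 11595896) measured 115 RPKM in the control and 8.86 after knockdown, a log2 fold of -3.68 (-3.80 to -3.59). The other 5 listed Zscan4 genes lay between 77.1 and 123 in shLuc and between 7.06 and 8.82 in shSmyd5 EBs. Tmem92 had 4.17 and 0.0437 (175 and 4 reads), and Arg2 showed the smallest difference, with 8.42 and 4.38 (-0.93).

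Both 24 h libraries were high for these genes, and that of shLuc the most. The summed RPKM of the 25 listed genes came to 893 (shLuc) and 82.6 (shSmyd5) at 24 h, to 2.22 and 1.99 in ES cells and to 25.2 and 22.7 at day 6. The shSmyd5 EBs of 24 h lay above all 4 other shLuc libraries for 10 of the 11 kept genes. Reads of the Zscan4 copies can be assigned only in part. Of the 50-base windows in their transcripts, 90.5% in Zscan4b, 78.3% in Zscan4c, 47.2% in Zscan4d and 97.8% in Zscan4f also stand in another gene. The promoters of Zscan4b (chr7:10905001-10905300, minus strand) and Zscan4f (chr7:11397665-11397964, plus strand) are shown as the pair with the most bases the same, position by position and without gaps. In the other 5 pairs compared in this way, 70 to 73 of 300 bases were the same. A shift between the annotated starts could give such values too, so the comparison cannot show how alike those promoters are. The sequences of Zscan4b and Zscan4f are those of RefSeq on GRCm38.p6, with the 13 of 300 positions at which they differ in capitals.
Zscan4b: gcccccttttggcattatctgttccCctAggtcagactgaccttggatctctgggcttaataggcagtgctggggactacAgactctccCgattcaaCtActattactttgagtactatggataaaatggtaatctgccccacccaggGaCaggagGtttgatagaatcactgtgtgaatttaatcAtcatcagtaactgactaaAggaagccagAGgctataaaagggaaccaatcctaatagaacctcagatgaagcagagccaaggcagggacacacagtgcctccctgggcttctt
Zscan4f: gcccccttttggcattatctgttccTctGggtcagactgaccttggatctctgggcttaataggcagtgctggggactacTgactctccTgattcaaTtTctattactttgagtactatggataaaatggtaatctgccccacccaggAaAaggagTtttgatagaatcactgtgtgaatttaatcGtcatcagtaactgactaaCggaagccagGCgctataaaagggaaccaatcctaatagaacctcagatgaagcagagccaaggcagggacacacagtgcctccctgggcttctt

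Further copies of gene families went with them. Gm4340, a member of the Thoc4-like family of this list, had 144 and 18.5 (-2.95), and Gm8300 and BB287469, which resemble the translation factor Eif1a, had 49.8 and 4.87 (-3.33) and 41.0 and 5.61 (-2.85). Once entries under 200 bases or under an RPKM of 10 were left out, 12 of the 15 lowest folds belonged to the 6 Zscan4 genes and to Gm2016, Gm4301, Gm4312, Gm5039, Gm5662 and Gm8300, next to Smyd5, Hoxa10 and Gm6607. Gm4301 and Gm4312 are listed with 3 places in the genome and have the same reads (213 and 23), so they are 1 measurement.

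**Figure D4:**
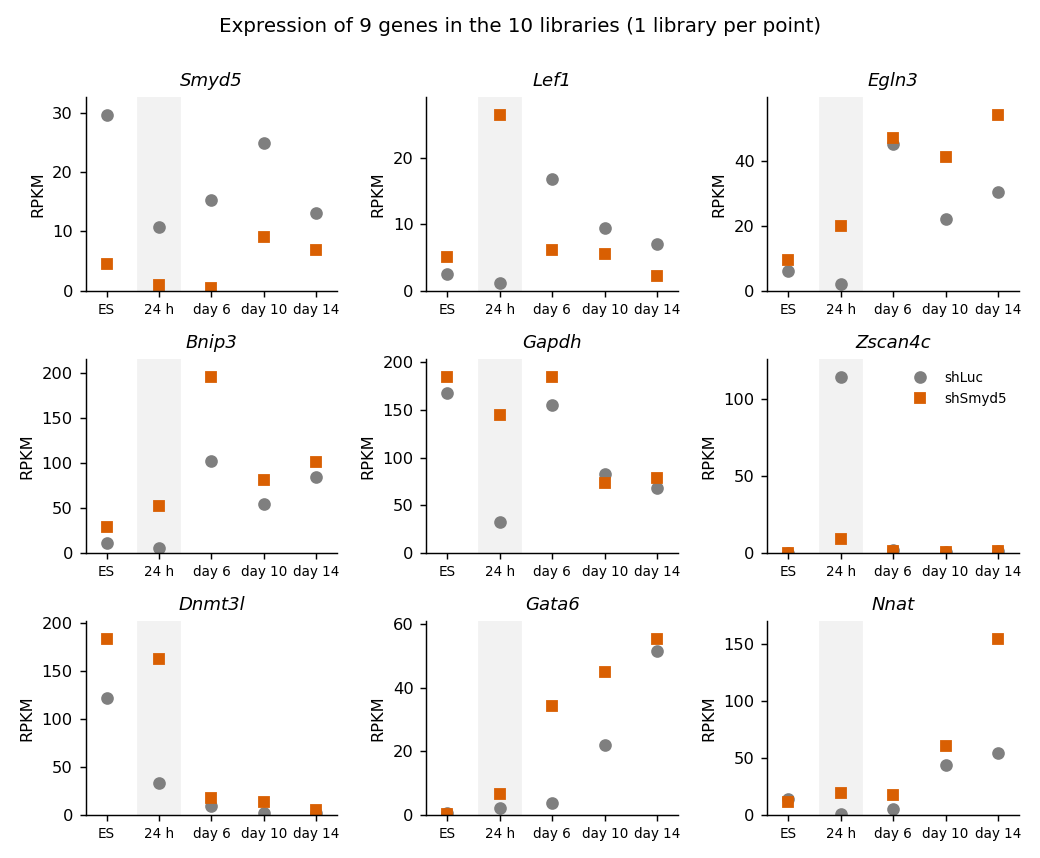
RPKM of 9 genes in all 10 libraries, with circles for shLuc, squares for shSmyd5 and the 24 h stage shaded; each point is 1 library and each panel has its own axis from 0. The 24 h shLuc value is the lowest of the 10 for Lef1, Egln3, Bnip3, Gapdh and Nnat and the highest for Zscan4c, while Smyd5 is lower in shSmyd5 at every stage.

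In the naive pluripotency network some genes were higher and others lower. All 34 listed genes were kept, of which 7 were at least 1.5-fold higher and 6 lower, against 27.8% and 12.2% of all genes, and the median log2 fold of 0.08 lay under that of all genes. On the corrected fold 5 were higher and 10 lower, against 13.9% and 12.7% of all genes, with a median of -0.23. Fbxo15, an F-box gene that OCT4 and SOX2 activate, measured 56.9 RPKM in the control and 17.2 after knockdown (-1.72, -1.83 to -1.61). The secreted phosphoprotein Spp1 had 709 and 271 (-1.39), the cytosine dioxygenases Tet2 and Tet1 39.1 and 18.3 (-1.09) and 58.7 and 29.3 (-1.0), and Nanog 99 and 57.4 (-0.78, corrected -1.08). On the other side stood Utf1, a chromatin protein of ES cells, with 200 and 724 (1.85, corrected 0.96), and the RNA-binding protein Lin28a with 14.7 and 42.1 (1.52, corrected 1.35). Pou5f1, which encodes OCT4, had 141 and 212 (0.59), but its corrected fold had the opposite sign, at -0.13. Esrrb, Klf2, Klf4, Klf5, Sox2 and Zfp42 differed by -0.28 to 0.24, but their corrected folds were all below 0, from -0.22 for Zfp42 to -0.78 for Klf2.

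Genes of the primed epiblast were higher in shSmyd5 EBs. Of 22 listed genes 14 were kept, of which 11 were at least 1.5-fold higher and 0 lower (median 1.1), against 27.8% and 12.2% of all genes. Among the 10 that reached the limit in both libraries there were 7 and 0. Lef1 is also on this list. On the corrected fold 8 of the 14 were higher and 1 lower (median 0.71), against 13.9% and 12.7% of all genes. The DNA methylation genes stood out, with Dnmt3l at 32.9 and 163 (2.31, 2.22 to 2.40), Dnmt3b at 13.8 and 33.1 (1.25) and Dnmt3a at 14.3 and 32.2 (1.17). The cadherin Cdh2 had 0.527 and 3.73 (2.61) and the homeobox gene Otx2 15.7 and 29.1 (0.89). Zic2 had a fold of -0.39, and Fgf5, the usual marker of this state, was at 0.874 and 0.869 and so below the level required. Dnmt3l was higher in ES cells (122 and 184) than at 24 h, so for this gene the shSmyd5 EBs were the nearer to the ES cell level. At day 6 and day 10 the list had medians of -0.68 and -0.73, and on the corrected fold of -0.31 and -0.81.

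Several primitive and visceral endoderm genes were higher in shSmyd5 EBs, at levels far below those of later EBs. Of 30 listed genes 10 were kept, with 8 at least 1.5-fold higher and 0 lower on both folds and medians of 1.61 and 1.23. Over all genes the shares were 27.8% higher and 12.2% lower, or 13.9% and 12.7% on the corrected fold. Of the 10, 3 reached the limit in shSmyd5 alone, so that their direction was fixed by the filter, and of the other 7, 5 were higher and 0 lower. The type IV collagen chains of the basement membrane, Col4a2 and Col4a1, had 1.07 and 8.10 (2.81) and 4.33 and 13.4 (1.60), and the matrix protein Sparc 32.0 and 105 (1.71). Gata6 and Sox7, transcription factors of this lineage, had 2.09 and 6.64 (1.62) and 1.13 and 4.24 (1.82). Gata4, Sox17 and Pdgfra did not reach an RPKM of 3, with 0.614 and 2.63, 0.383 and 1.17, and 0.803 and 1.72. All 30 genes together summed to 124 and 273 at 24 h and to 646 and 4780 at day 6, where the median fold was 3.12. In ES cells the sum was 966 and 642, of which Apoe alone made 793 and 483, so the summed level at 24 h lay below that of ES cells in both groups.

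Few genes of other lineages were kept. Of the mesoderm list 3 of 20 genes and of the trophoblast list 1 of 16 reached the level required. Of the neural genes 4 of 18 were kept, among them Sox1 at 3.39 and 1.06 (-1.59) and Ncam1 at 3.29 and 1.50 (-1.08). Sox1 and Ncam1 passed the filter through shLuc alone, which fixed their direction. Nnat, an imprinted gene for a small membrane protein of neural tissue (chromosome 2, 157385814 to 157388258), had an RPKM of 0.775 and 18.9 from 18 and 955 reads, a log2 fold of 4.44 (3.94 to 5.37), the largest among transcripts of at least 200 bases at an RPKM of 10. Nnat passed the filter through shSmyd5 alone, which fixed its direction. It had 13.8 and 11.7 in ES cells, so the shLuc value at 24 h was again the lowest of the 10. From the 40 Hox genes only Hoxa10 and Hoxd13 were kept, both through shLuc alone, so that the filter fixed their direction, Hoxa10 at 11.8 and 0.685 (-3.92, -4.51 to -3.72) and Hoxd13 at 4.01 and 0.953 (-1.96). The shLuc library had the highest value of the 10 for both, and 26 of the 40 Hox genes had 0 reads in the shSmyd5 library against 9 in the shallower shLuc library. Of all 22878 genes, 8533 had 0 reads in shSmyd5 and 6670 in shLuc, so more genes at 0 in shSmyd5 was not particular to Hox genes.

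Of 23 kept imprinted genes 8 were at least 1.5-fold higher and 2 lower, against 27.8% and 12.2% of all genes, and the median was 0.35, or -0.03 when corrected. On the corrected fold 7 of 21 were higher and 3 lower, against 13.9% and 12.7% of all genes. The filter fixed the direction of 5 that passed through shSmyd5 alone, Sgce and Igf2 among them, and of 1 through shLuc alone. Of the 17 that reached the limit in both libraries 4 were higher and 2 lower before correction. Peg10 and its neighbor Sgce, both expressed from the paternal copy, had 66.8 and 285 (2.09, 2.06 to 2.12) and 1.86 and 4.79 (1.32). Igf2, a fetal growth factor, had 1.30 and 5.00 (1.86), and Grb10, an adaptor that restrains growth, had 48.8 and 12.1 (-2.0, -2.08 to -1.94). Peg10 and Igf2 were also higher in shSmyd5 EBs at day 6, at 333 against 78.6 and 389 against 37.4, where Grb10 had 19 against 90.1. In ES cells Peg10 was lower in shSmyd5, at 1.25 against 10.8.

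The signals that guide these states gave mixed counts. Over all genes the shares were 27.8% higher and 12.2% lower, or 13.9% and 12.7% on the corrected fold. Among Nodal pathway genes 3 of 11 were at least 1.5-fold higher and 3 lower, and 2 and 5 on the corrected fold. Of the 9 that reached the limit in both libraries 3 were higher and 2 lower before correction. The ligand Nodal had 6.76 and 15.3 (1.16), whereas its inhibitors and targets Lefty1 and Lefty2 had 10.4 and 5.96 (-0.80) and 35.2 and 11.3 (-1.63), with 11.6% of the windows of Lefty2 shared with Lefty1. In the BMP pathway 1 of 9 was higher and 3 lower (corrected 1 and 4), with the ligand Bmp4 at 21.3 and 46.6 (1.13) and the receptor Bmpr2 at 4.04 and 1.46 (-1.41). Bmpr2 passed the filter through shLuc alone, and of the 8 in both libraries 1 was higher and 2 lower before correction. Of 16 FGF and ERK genes 6 were higher and 1 lower (corrected 3 and 2), including the feedback genes Spry4 at 20.2 and 46.6 (1.21) and Dusp6 at 18.7 and 42.7 (1.19), against the ligand Fgf17 at 5.65 and 2.42 (-1.19). Fgf17 passed the filter through shLuc alone, and of the 14 in both libraries 5 were higher and 0 lower before correction. LIF and STAT3 targets had 5 of 12 higher and 0 lower (median 0.40), and 4 and 0 of the 11 in both libraries, but a corrected median of -0.02.

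Metallothioneins, which bind zinc and other metals, differed strongly. Mt2 had an RPKM of 125 and 1085 (3.12, 3.04 to 3.20, corrected 2.29) and Mt1 262 and 1192 (2.18, corrected 1.28). Both were also higher in shSmyd5 ES cells (565 against 260 for Mt2) and at day 6 (1273 against 149). The zinc exporter Slc30a1, which metals induce as well, had 5.84 and 4.19 (-0.47).

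In lists of general cell function the counts changed most when the GC trend was removed. Their background was 27.8% of all genes higher and 12.2% lower, or 13.9% and 12.7% when corrected. Of 83 cytosolic ribosomal protein genes 44 were at least 1.5-fold higher and 1 lower (median 0.65), and on the corrected fold 24 and 8 (median 0.20). Subunits of the respiratory chain had 29 of 81 higher and 1 lower (median 0.38), which became 4 and 9 (median -0.02). Of the 79 that reached the limit in both libraries 27 were higher and 1 lower before correction. The highest fold of that list belonged to Ndufa4l2, a subunit paralog known to be induced in hypoxia, with 0.487 and 5.61 (3.28, 2.58 to 4.67). Ndufa4l2 passed the filter through shSmyd5 alone, which fixed its direction. Genes of the integrated stress and unfolded protein responses had 10 of 22 higher and 1 lower, which became 3 and 2, with Chac1, a target of ATF4 that degrades glutathione, at 2.72 and 13.8 (2.30, corrected 1.60). Chac1 passed through shSmyd5 alone, and of the 20 stress genes in both libraries 8 were higher and 1 lower before correction. Cholesterol and fatty acid synthesis had 10 of 27 higher and 0 lower (median 0.50, corrected 0.30), and 9 and 0 of the 23 in both libraries. Of 18 p53 targets 6 were higher and 2 lower, and 0 and 0 on the corrected fold. Of the 17 p53 targets in both libraries 5 were higher and 2 lower before correction. Cell cycle genes had 10 of 37 higher and 5 lower, corrected 4 and 4. Of the 37, 3 passed the filter through shLuc alone, and the 34 in both libraries held 10 higher and 3 lower. The cyclin Ccnd2 had 5.62 and 1.64 (-1.72) and the inhibitor Cdkn2a 5.94 and 1.52 (-1.90). Both passed through shLuc alone, so the filter fixed their direction.

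**Figure D5:**
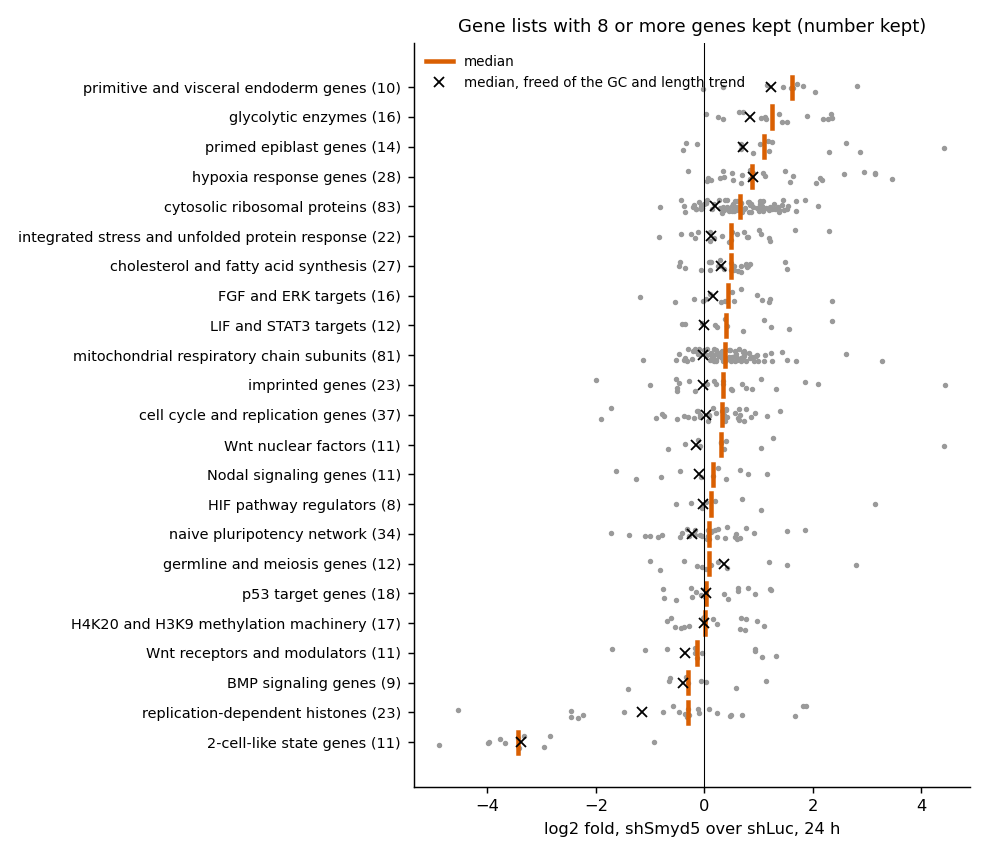
Log2 fold of every kept gene (grey points) in the lists with 8 or more kept genes, with the median as a bar and the median of the corrected fold as a cross; the number kept is in brackets. The medians run from -3.43 (2-cell-like state) to 1.61 (primitive and visceral endoderm), and the crosses of hypoxia response genes and 2-cell-like genes stay within 0.1 of the bars.

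The machinery of H4K20 and H3K9 methylation had a median fold near 0. Of 17 genes for these marks and their readers, 6 were at least 1.5-fold higher and 2 lower, against 27.8% and 12.2% of all genes. On the corrected fold there were 1 and 2, against 13.9% and 12.7%. The medians were 0.01 and -0.01. The H4K20 methyltransferases Suv420h1 and Suv420h2 had 3.95 and 3.02 (-0.38) and 4.99 and 9.87 (0.97, corrected 0.19). Setdb1 had 23.4 and 14.5 (-0.69, corrected -0.76). The relatives Smyd2, Smyd3 and Smyd4 had folds of 0.63, 0.85 and 0.14. Germline genes, some of which are silenced by DNA methylation and heterochromatin, had 3 of 12 higher and 2 lower, against the same 27.8% and 12.2%. Of the 11 that reached the limit in both libraries 2 were higher and 2 lower. The direction of Stra8, which passed through shSmyd5 alone, was fixed by the filter. Stra8, which starts meiosis, had 1.04 and 7.82 (2.80, 2.37 to 3.51), Mael 5.29 and 15.4 (1.53) and Tex14 10.4 and 5.14 (-1.0).

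Replication-dependent histone genes, whose messages mostly lack a polyA tail, were uneven. Of 23 kept 4 were at least 1.5-fold higher and 8 lower (median -0.31), against 27.8% and 12.2% of all genes. On the corrected fold there were 4 and 15 (median -1.14), against 13.9% and 12.7%. The filter fixed the direction of 4 of the 23 that passed through shLuc alone and of 2 through shSmyd5 alone. Of the 17 that reached the limit in both libraries 3 were higher and 4 lower before correction. Hist1h2bc had 76.0 and 27.0 (-1.49) and Hist1h2ao 35.9 and 132 (1.88), and copies of this family share sequence, for example 38.6% of the windows of Hist2h2ac.

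The remaining genes with the highest folds at an RPKM of at least 10 had varied roles. They included Cd63, a tetraspanin of endosomes and exosomes, at 4.0 and 24.6 (2.59), Cox7a1, a muscle-type subunit of cytochrome oxidase, at 2.85 and 17.8 (2.60), Twf2, an actin-binding protein, at 6.30 and 36.0 (2.49), the calpain gene Capn12 at 12.8 and 83.7 (2.70), and Timm23, a mitochondrial import channel, at 4.57 and 29.0 (2.64). Aldoart1, a retrogene of Aldoa that shares 5.31% of its windows with other genes, had 2.92 and 18.5 (2.62), and 2200002D01Rik, which overlaps Yif1b in 23.3% of its exonic bases, 1.85 and 12.6 (2.71). Entries shorter than 200 bases held 41 of the 4938 genes at this level and took 8 of the 15 highest and 4 of the 15 lowest folds. They were small nucleolar RNAs and microRNA precursors such as Snord69 (29 and 0 reads), several of which lie wholly within exons of longer genes (Snord12 within 1500012F01Rik), so their reads cannot be separated from those of the host.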

How the data were processed

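PolyA RNA of R1 ES cells and EBs was sequenced from single ends by the authors, with CASAVA, Bowtie2 and mm9 named in the submitters' processing notes; their versions are not given in the sources used here, and the cDNA kept no strand. The deposited values were read counts per transcript and the RPKM that the authors computed from them. Among transcripts with many reads, 100% of RPKM values lay within 1% of reads scaled by length and 1 size per library. That size was itself the median implied by the deposited RPKM. Each gene symbol was represented by its most read transcript, by the mean of 10 libraries, and kept if its RPKM was 3 or more in either 24 h library. Folds were log2(RPKM + 0.1) of shSmyd5 less shLuc, which understates changes of low genes, with exact binomial (Clopper-Pearson) 95% intervals of the reads. A corrected fold was freed of an additive spline trend (5 degrees of freedom) on GC content and log2 transcript length. With 1 library per group the folds carry no p-value, and the computation of folds, intervals and trend was tested on simulated data. TMM factors and an exact test of edgeR 4.0.16 with an assumed spread, and size factors of DESeq2 1.42.0, served as alternatives, in R 4.3.3 beside Python 3.11.15, pandas 2.3.3 and scipy 1.17.1. Gene positions came from GENCODE on mm9, promoters from RefSeq on GRCm38.p6. Shared sequence is the share of 50-base windows of a transcript that stand in transcripts of other genes.

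Named were Smyd5, Lef1 and Egln3, the 15 highest and 15 lowest folds at an RPKM of at least 10, the 10 highest and 10 lowest corrected folds, the 4 largest absolute folds of each of 32 gene lists, and cell type markers. Further list members and the ranking without transcripts under 200 bases were chosen after their values were seen. Genes and lists were chosen with earlier results of these data known.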

Additional observations from a re-analysis of the deposited data

Results flagged for a closer look

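Several differences of 24 h EBs had the opposite direction at another stage, by at least 2-fold for single genes and 1.5-fold for list medians. With 1 library per condition, none of these differences between stages was tested. The log2 fold of Lef1, 4.42 at 24 h, was -1.46 at day 6 and -1.62 at day 14. Slc16a3, at 3.47, had -1.28 in ES cells. The actin-binding gene Twf2, at 2.49, had -1.43 at day 6, and Aldoart1, at 2.62, had -1.31 at day 6.

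The Wnt target genes, with a median of 0.64 at 24 h, had medians of -1.06 at day 6, -0.77 at day 10 and -1.32 at day 14 (corrected -0.78, -0.86 and -1.49, against 0.27 at 24 h). The primed epiblast genes, with a median of 1.1, had -0.68 at day 6 and -0.73 at day 10 (corrected -0.31 and -0.81, against 0.71 at 24 h). Lef1 belongs to both lists. Fold and GC content had a rank correlation of 0.576 at 24 h, and one of -0.684 in ES cells and -0.386 at day 10, so GC-rich transcripts were higher in shSmyd5 at 24 h and lower at those stages. Its part in the folds of single genes at other stages was not tested.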

How the results depend on the processing

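The 1443 genes at least 2-fold apart (1087 higher and 356 lower in shSmyd5 EBs) became 2386 (1640 and 746) at an RPKM of at least 1, 654 (535 and 119) at 10 and 4467 (2339 and 2128) with no filter. With the GC and length trend removed there were 731, of which 403 were higher. When an exact test of edgeR at an adjusted p under 0.001 was also required, 231 (139 and 92) were left at an assumed biological coefficient of variation of 0.2 and 5 (3 and 2) at 0.4, so the number depends on a spread that these libraries cannot give. The 3349 genes at least 1.5-fold apart became 1755 (1281 and 474) at an RPKM of at least 10, 8207 (4297 and 3910) with no filter and 2126 (1111 higher) with the trend removed, and 1641 were lower at an RPKM of at least 1. The log2 fold of Smyd5 was -2.63 with 1 added to each RPKM and -3.93 with the trend removed, and the rank correlation with GC content was 0.512 at an RPKM of at least 1 and 0.277 with no filter. Of 149 named genes at least 1.5-fold apart, 142 stayed so with the median of all genes removed, with TMM factors or with DESeq2 size factors, and 104 of 132 with the trend removed, where Pou5f1 (-0.13) and Foxh1 (-0.023) changed direction. The medians of Wnt target genes and ribosomal protein genes fell under 1.5-fold in these 4 settings. Leaving out transcripts under 200 bases, an alternative chosen after seeing the data, left 1394 genes at 2-fold. No paired analysis was possible because each group had 1 library and the labels share no replicate numbers, and for the same reason no library could be left out. Depth limits genes with few reads, and intervals cover counting error only.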
